A study of Mus musculus with 2 samples.

Results

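Peroxins are the proteins that build peroxisomes, and catalase is the enzyme that marks them. The 10 genes described here are the peroxins Pex5, Pex6, Pex7, Pex11a, Pex11g, Pex13, Pex14, Pex16 and Pex19 and the catalase gene Cat, taken by name from the 43346 mouse gene identifiers of the deposited tables, and all 10 were found. They were measured by total RNA-seq, of RNA longer than 200 nucleotides, in liver from adult C57BL/6J mice aged 8 weeks. There are 2 libraries, which the labels number as biological replicates and which form 1 group with no treatment or genotype to compare. The donor identifier is the same for both, and the sex is given as not collected. Whether a single mouse gave all of the RNA is not stated. The libraries may therefore differ for technical reasons, to an extent that was not tested. Markers of adrenal cortex, pancreas and skeletal muscle, given below, also differed between them.

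Peroxisomes import folded enzymes from the cytosol. PEX5 picks up cargo with a signal at the carboxyl terminus, PEX7 picks up the smaller set with a signal near the amino terminus, and both hand their cargo to the docking proteins PEX13 and PEX14. A motor that contains PEX6 then pulls PEX5 back out of the membrane, PEX16 and PEX19 bring in membrane proteins, and the PEX11 family shapes and divides the organelle. In liver, peroxisomes shorten very long and branched fatty acids, take part in bile acid synthesis and break down uric acid in mice, and catalase removes the hydrogen peroxide that these oxidations release. Inherited loss of many of the peroxins, though not of each one, causes the Zellweger spectrum of disorders in humans.

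Mouse genes held 71068191 expected counts in replicate 2 and 83816487 in replicate 1. Expected counts are estimated fragments per gene, and TPM is an abundance scaled to transcript length and to the sum of its library. Protein-coding genes held 16.3% of TPM in replicate 2 and 12.1% in replicate 1, and other features held the remainder, so that deposited TPM of messenger RNAs rest on a scale that differed between the libraries. Hepatocyte markers such as Alb were high in both libraries, with 5 of 5 markers at 1 TPM or more and a summed level of 15163 TPM in replicate 2 and 9239 TPM in replicate 1. Kupffer cell markers summed to 52.7 TPM in replicate 2 and 47.6 TPM in replicate 1, endothelial ones to 37.5 and 28.2 TPM, stellate ones to 41.9 and 28.4 TPM, and cholangiocyte ones to 0.67 and 0.69 TPM. These sums take in the shift of scale. On TMM-scaled counts the Kupffer cell markers had a median log2 ratio of replicate 2 over replicate 1 of -0.35, with 3 of 5 below 0. That median was 0.11 for hepatocyte, -0.04 for endothelial and 0.12 for stellate markers. Markers of other tissues differed between the libraries. The adrenal gene Star had 2021 counts in replicate 2 and 48 in replicate 1, and the muscle gene Acta1 had 1 and 669. Whether the samples were separate pieces of tissue was not tested. Of 5 adrenal cortex markers 0 reached 1 TPM in both libraries, and they summed to 13.8 TPM in replicate 2 and 0.18 TPM in replicate 1. Of 5 pancreatic acinar markers, including Pnlip and Cpa1, 5 reached 1 TPM in both, and they summed to 31.6 TPM in replicate 2 and 83.4 TPM in replicate 1, while 4 skeletal muscle markers summed to 0.02 TPM in replicate 2 and 3.76 TPM in replicate 1. Erythroid markers, of interest because red cells hold catalase, summed to 261 TPM in replicate 2 and 131 TPM in replicate 1, with 5 of 5 at 1 TPM or more in both. Their part in the values below was not tested.

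All 10 genes reached 1 TPM in both libraries, where 31% of 21474 protein-coding genes did. Together they summed to 355 TPM in replicate 2 and 251 TPM in replicate 1, a mean of 303.0 ± 73.6 (SD, n = 2). Cat alone held 78.1% of that sum in replicate 2 and 78.3% in replicate 1, and the 9 peroxins shared 77.9 TPM in replicate 2 and 54.4 TPM in replicate 1. In bulk tissue, fewer cells of a type and less RNA per cell cannot be told apart. The posterior SD that the authors' files give for the gene count was 0 fragments for each of the 10 genes in both libraries.

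**Figure D1:**
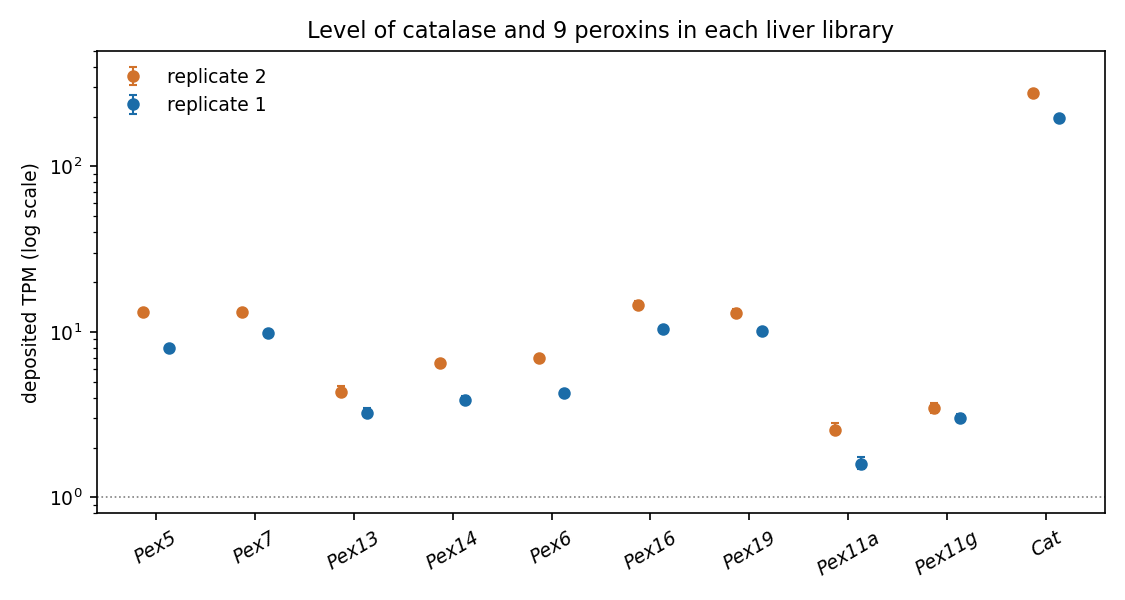
Deposited TPM (log axis) of each gene in replicate 2 (orange, left) and replicate 1 (blue, right), with bars for the interval the authors' files give for each estimate, often smaller than the point; the dotted line marks 1 TPM. Cat stands at 277 and 197 TPM, the peroxins between 1.58 and 14.6 TPM.

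Cat encodes catalase, which splits hydrogen peroxide into water and oxygen (ENSMUSG00000027187.6, chromosome 2, 103453849 to 103485160, minus strand, mm10). It had 134961 expected counts in replicate 2 and 149262 in replicate 1, and stood at 277 TPM and 197 TPM, a mean of 237 ± 57.0 TPM (SD, n = 2). Among 21474 protein-coding genes it ranked 70 in replicate 2 and 75 in replicate 1. Its level was 18.9 times that of the highest peroxin of the 9 in each library, and 108 times that of the lowest in replicate 2 and 124 times in replicate 1. Rescaled over protein-coding genes alone, Cat was at 1702 TPM in replicate 2 and 1618 TPM in replicate 1, values that lie closer together than the deposited TPM. On the log2 scale of TMM-scaled CPM plus 0.5, its ratio of replicate 2 over replicate 1 was -0.06.

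Catalase is itself a cargo of the PEX5 route. The targeting signal of most such enzymes is the run of the last 3 residues before the stop, and that of catalase is known as an unusual variant. The coding ends of Cat and of another abundant cargo gene, Uox, which encodes urate oxidase, are shown because they encode the stretch that PEX5 recognises. Each line reads 5′ to 3′ and ends with the stop codon, and capitals mark the last 9 coding bases (mm10, GENCODE transcripts).
Cat, chromosome 2, 103454756 to 103454785, minus strand: atggctgcgaagggaaaaGCTAACCTGtaa
Uox, chromosome 3, 146630578 to 146630607, plus strand: gtcaagaggaagctgcctTCCAGGCTGtga
The marked bases of the 2 genes differ. Uox was measured at 310 TPM in replicate 2 and 182 TPM in replicate 1, so Cat lay below Uox in replicate 2 and above it in replicate 1.

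Nearly all Cat RNA was assigned to a single transcript. Cat-201, which codes for the full enzyme over 1581 nucleotides in 13 exons, held 99.88% of the gene in replicate 2 and 99.95% in replicate 1 by IsoPct, the share of a transcript in its gene by TPM. Cat-202, a shorter coding transcript, had 37.8 counts in replicate 2 and 16.8 in replicate 1, with a posterior SD of 13.6 and 8.21 fragments.

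The cargo receptors Pex5 and Pex7 had similar levels. Pex5 (ENSMUSG00000005069.8, chromosome 6, 124396816 to 124415067, minus strand) had 7323 counts and 13.2 TPM in replicate 2, and 7087 counts and 8.01 TPM in replicate 1. Pex7 (ENSMUSG00000020003.11, chromosome 10, 19853900 to 19907689, minus strand) had 4794 counts and 13.3 TPM in replicate 2, and 5554 counts and 9.87 TPM in replicate 1. The level of Pex5 was 0.998 times that of Pex7 in replicate 2 and 0.812 times in replicate 1. The ranges of deposited TPM of the pair over the libraries overlap. Their means were 10.6 ± 3.69 TPM for Pex5 and 11.6 ± 2.40 TPM for Pex7 (SD, n = 2 each). Between the libraries, Pex5 had a log2 ratio of 0.14 and Pex7 of -0.12.

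PEX5 exists in mammals in a long and a short form, which differ by an internal stretch, and the long form is the one known to carry PEX7 and its cargo to the membrane. The annotation places this difference in an internal coding exon of 111 nucleotides on chromosome 6 from 124404133 to 124404243, minus strand (mm10). It is shown because it is the stretch by which coding sequences of 1917 and 1806 nucleotides differ in length; capitals mark the 21 bases that Pex5-203 skips.
Pex5 long-form exon: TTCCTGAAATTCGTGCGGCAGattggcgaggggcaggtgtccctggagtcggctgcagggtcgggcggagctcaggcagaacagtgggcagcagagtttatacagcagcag
Transcripts with this exon, whole or in part, are Pex5-201, Pex5-205 and Pex5-203, and coding transcripts without it are Pex5-202 and Pex5-204.

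The short form of Pex5 was the more abundant in both libraries. Coding transcripts without the exon held 5623 counts in replicate 2 and 5468 in replicate 1, and those with it 1612 and 1578 counts. As a share of the coding IsoPct, transcripts with the exon, whole or in part, held 21.9% in replicate 2 and 22% in replicate 1 (SD 0.0719 percentage points, n = 2), and those without it 78.1% and 78.0%. Transcripts with the whole exon alone held 21.01% in replicate 2 and 22% in replicate 1 (SD 0.698 percentage points, n = 2). By expected counts the share with the exon, whole or in part, was 22.3% in replicate 2 and 22.4% in replicate 1. The SDs between libraries do not cover the uncertainty of assigning reads to transcripts. Pex5-201 had 1481 counts with a posterior SD of 132 fragments in replicate 2, and 1463 with an SD of 178 in replicate 1. For Pex5-202 the posterior SD was 106 fragments in replicate 2 and 97.4 in replicate 1. The transcripts that hold the whole exon were not well resolved from each other: Pex5-205 had 66.9 counts with a posterior SD of 82.7 fragments in replicate 2 and 114 counts with an SD of 132 in replicate 1. Pex5-203, which has the shortened exon, had 63.5 counts in replicate 2, with a posterior SD of 52.0 fragments, and 0 in replicate 1.

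Pex7 was held by 1 coding transcript. Pex7-201 had 93.42% of IsoPct in replicate 2 and 93.4% in replicate 1, with 4677 and 5418 counts. Pex7-203, which in GENCODE M21 lacks a coding exon of 78 nucleotides, had 63.9 counts in replicate 2 and 76.6 in replicate 1, with a posterior SD of 44.2 and 71.0 fragments. The deposited lengths were 2070 nucleotides for Pex7-201 and 1809 for Pex7-203, against 8099 and 1047 in GENCODE M21. The models that were counted thus differ from those described here, and whether they differ by that exon is not shown. The transcript that retains an intron, Pex7-202, held 5.10% in replicate 2 and 5.06% in replicate 1.

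**Figure D2:**
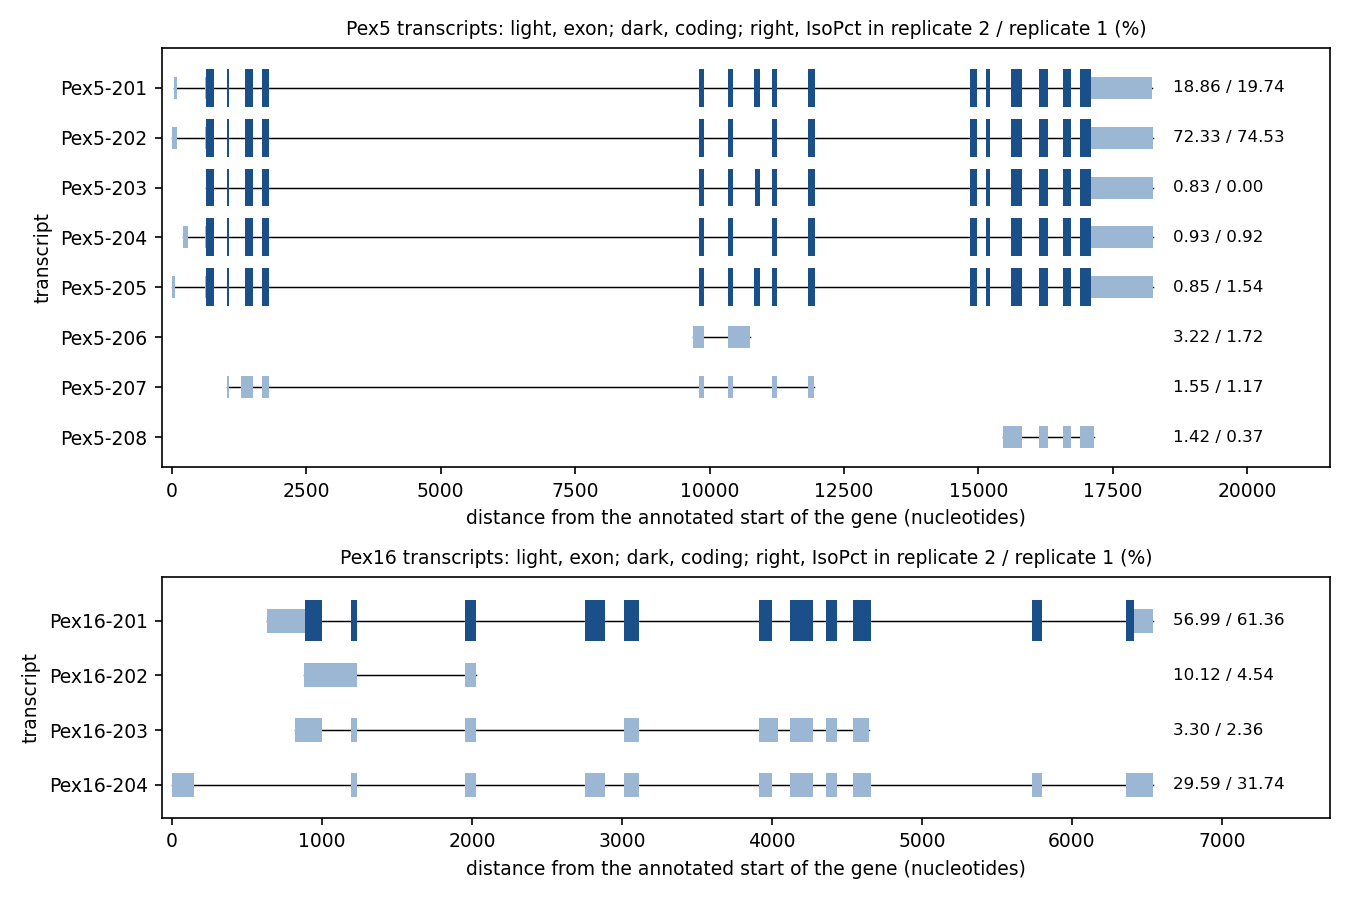
Annotated transcripts of Pex5 (top) and Pex16 (bottom), drawn to scale by distance in nucleotides from the annotated start of the gene, with coding parts dark and other exon parts light; the numbers at the right are IsoPct in replicate 2 and replicate 1. The exon of the long Pex5 form is the coding block present in Pex5-201, Pex5-203 and Pex5-205 and absent from Pex5-202, which holds 72.33% and 74.53%. Pex16-204 starts 630 nucleotides before Pex16-201.

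The docking proteins were lower than the receptors. Pex14 (ENSMUSG00000028975.12, chromosome 4, 148960535 to 149099876, minus strand) had 2324 counts and 6.47 TPM in replicate 2, and 2167 counts and 3.87 TPM in replicate 1. Pex13 (ENSMUSG00000020283.5, chromosome 11, 23646479 to 23665959, minus strand) had 3151 counts and 4.31 TPM in replicate 2, and 3643 counts and 3.23 TPM in replicate 1. Within each library Pex14 exceeded Pex13, by 1.501 times in replicate 2 and 1.20 times in replicate 1, with the deposited intervals apart. Their ranges of deposited TPM over the libraries overlap. The log2 ratios between the libraries were 0.19 for Pex14 and -0.12 for Pex13.

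Both docking genes were held by a single coding transcript, Pex14-201 at 90.12% in replicate 2 and 93.28% in replicate 1 and Pex13-201 at 91.26% and 90.33%. The short transcript Pex13-204 had 7.97% of IsoPct in replicate 2 and 7.31% in replicate 1 from 10 counts in each. By expected counts, protein-coding transcripts held 99.6% of Pex13 in replicate 2 and 99.5% in replicate 1, so that share by TPM rests on few reads. Pex13 overlaps the gene Pus10, which lies on the opposite strand and had 1310 counts in replicate 2 and 1978 in replicate 1. Whether the counting used strand is not stated, and without it reads from any sequence that both genes share cannot be told apart. The posterior SD of the Pex13 count, which covers the assignment of reads between features, was 0 fragments in both libraries. The part of Pus10 in the Pex13 count was not tested.

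Pex6 encodes an ATPase that works at the peroxisomal membrane, where PEX26 holds it. Pex6 (ENSMUSG00000002763.12, chromosome 17, 46711463 to 46725541, plus strand) had 4208 counts and 6.94 TPM in replicate 2, and 4086 counts and 4.30 TPM in replicate 1, a mean of 5.62 ± 1.87 TPM (SD, n = 2). Pex26 was lower, at 1.97 TPM in replicate 2 and 1.09 TPM in replicate 1, and the ranges of the pair over the libraries do not overlap. The log2 ratio of Pex6 was 0.13 and that of Pex26 was 0.16. Pex6-201, the coding transcript, held 93.02% in replicate 2 and 89.76% in replicate 1. Pex6-203, which keeps an intron of 183 nucleotides, held 6.54% in replicate 2 and 10.24% in replicate 1, with 292 counts and 441 counts and a posterior SD of 54.5 and 54.7 fragments.

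The membrane-assembly genes were among the highest peroxins. Pex16 encodes a membrane protein that recruits other membrane peroxins, and Pex19 encodes the soluble chaperone that carries newly made membrane proteins. Pex16 (ENSMUSG00000027222.10, chromosome 2, 92374676 to 92381217, plus strand) had 2983 counts and 14.6 TPM in replicate 2, and 3469 counts and 10.4 TPM in replicate 1, a mean of 12.5 ± 2.98 TPM (SD, n = 2). Pex19 (ENSMUSG00000003464.9, chromosome 1, 172126755 to 172136493, plus strand) had 4621 counts and 13.1 TPM in replicate 2, and 5772 counts and 10.1 TPM in replicate 1, a mean of 11.6 ± 2.12 TPM (SD, n = 2). Pex3, the membrane anchor for PEX19, was lower at 3.52 TPM in replicate 2 and 3.22 TPM in replicate 1. The log2 ratios were -0.13 for Pex16, -0.23 for Pex19 and -0.36 for Pex3.

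Pex16 was the gene of the 10 with the smallest share of its RNA in transcripts annotated as coding. Pex16-201, its coding transcript, held 56.99% of IsoPct in replicate 2 and 61.36% in replicate 1, a mean of 59.2% ± 3.09 (SD, n = 2). By expected counts its share was larger, at 67.3% in replicate 2 and 68.8% in replicate 1. Pex16-204, which the annotation gives no coding sequence, held 29.59% of IsoPct in replicate 2 and 31.74% in replicate 1, from 845 and 1000 counts with a posterior SD of 80.9 and 77.1 fragments. Its 10 exons after the first begin where those of Pex16-201 do, while its first exon, of 146 nucleotides, lies apart from that of Pex16-201, of 370 nucleotides. Pex16-202, a transcript of 2 exons, held 10.12% in replicate 2 and 4.54% in replicate 1, from 67.0 and 32.0 counts.

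RefSeq lists 2 start sites for Pex16, and the upstream one falls on the first base of Pex16-204. The 250 bases before each start are shown because transcripts assigned to either first exon had counts in both libraries (plus strand, RefSeq table of build GRCm38.p6, which is mm10). The start at 92375239 lies before the first exon of Pex16-201, which begins at 92375306. Capitals mark matches to 3 motifs, each searched on both strands. The first is the CCAAT box, spelled as named. The second is the GC box, with the letters GGGCGG. The third is the TATA box, with the letters TATAAA, which here stands on the minus strand. The 3 matches do not overlap.
Before the start at 92374676, chr2:92374426-92374675: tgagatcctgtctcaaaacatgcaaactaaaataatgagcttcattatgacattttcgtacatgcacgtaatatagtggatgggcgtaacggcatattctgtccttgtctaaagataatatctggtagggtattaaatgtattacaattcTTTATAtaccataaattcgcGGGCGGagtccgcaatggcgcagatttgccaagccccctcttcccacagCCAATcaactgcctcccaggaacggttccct
Before the start at 92375239, chr2:92374989-92375238: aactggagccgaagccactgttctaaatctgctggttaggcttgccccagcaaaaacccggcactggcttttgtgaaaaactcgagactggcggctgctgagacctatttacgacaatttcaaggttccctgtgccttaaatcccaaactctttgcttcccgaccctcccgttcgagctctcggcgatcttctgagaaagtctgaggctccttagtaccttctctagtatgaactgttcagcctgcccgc
The window before the upstream start held each motif once. The CCAAT box began 31 bases before that start, the GC box 80 and the TATA box letters 100, and the window before the other start held none of the 3. Of 32851 windows of the same length before RefSeq starts, 33.8% held the CCAAT box on either strand, 32.7% the GC box and 12.4% the TATA box letters. Pex16 also overlaps the gene Large2 on the opposite strand, which had 16 counts in replicate 2 and 14 in replicate 1.

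Pex19 was divided between 2 coding transcripts. Pex19-201, with 897 coding nucleotides, held 57.8% in replicate 2 and 60.62% in replicate 1, and Pex19-202, with 621, held 26.45% and 27.68%. Pex19-202 lacks 2 exons of Pex19-201, of 110 and 166 nucleotides. It is nevertheless the longer transcript, at 2844 against 1917 nucleotides, so it also holds sequence that Pex19-201 does not. In counts, Pex19-202 had 1846 in replicate 2 and 2320 in replicate 1 with posterior SDs of 60.4 and 59.8 fragments, so its counts exceed the uncertainty of the assignment. Which part of Pex19-202 these counts came from was not tested. It could be sequence shared with Pex19-201, the junction across the missing exons or the added sequence. The 4 Pex19 transcripts with retained introns summed to 15.7% of IsoPct in replicate 2 and 11.7% in replicate 1, but to 3.36% and 2.77% of counts.

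The division genes were the lowest of the 10. PEX11 proteins bend and elongate the peroxisomal membrane before it divides, and Pex11a is known as a gene that ligands of the receptor PPAR alpha induce in rodent liver. Pex11a (ENSMUSG00000030545.8, chromosome 7, 79735957 to 79743131, minus strand) had 1004 counts and 2.56 TPM in replicate 2, and 957 counts and 1.58 TPM in replicate 1. Pex11g (ENSMUSG00000069633.8, chromosome 8, 3457105 to 3467680, minus strand) had 1604 counts and 3.45 TPM in replicate 2, and 2261 counts and 3.02 TPM in replicate 1. The level of Pex11g was 1.35 times that of Pex11a in replicate 2 and 1.91 times in replicate 1.

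Pex11g and Pex11a lay on opposite sides of equal values between the libraries, with log2 ratios of -0.40 for Pex11g and 0.15 for Pex11a. Under the spike-in scaling the ratio of Pex11g was -0.08, and by the deposited TPM it was 0.19, the lowest of the 10 under both. The coding transcripts Pex11a-201 and Pex11g-201 held 91.55% and 82.93% in replicate 2, and 91.87% and 86.06% in replicate 1. Pex11g-202, a coding transcript that lacks an exon of 189 nucleotides, held 13.93% in replicate 2 and 9.63% in replicate 1 from 45.1 and 41.9 counts. It also lacks 1977 nucleotides from within an exon of Pex11g-201, and is 666 nucleotides long against 2870. Its share by TPM thus rests on few of the 1604 and 2261 counts of the gene.

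By mean TPM the order ran Cat, Pex16, Pex19, Pex7, Pex5, Pex6, Pex14, Pex13, Pex11g, Pex11a. Of the 9 steps between neighbours, 3 separated genes whose ranges of deposited TPM over the libraries do not overlap: Cat over Pex16, by 18.9 times, Pex5 over Pex6, by 1.89 times, and Pex11g over Pex11a, by 1.56 times. By deposited TPM each other pair of neighbours overlapped, along Pex16, Pex19, Pex7 and Pex5 and along Pex6, Pex14, Pex13 and Pex11g. The order of the first of these runs differed between the libraries, with Pex19 below Pex7 and Pex5 in replicate 2 and above both in replicate 1. These ranges, and the SDs of deposited TPM above, take in the shift of scale between the libraries. Rescaled over protein-coding genes alone, Pex16 (89.9 TPM in replicate 2, 85.8 in replicate 1) lay apart from Pex19 (80.3, 82.9). On that scale Pex13 (26.5, 26.6) lay apart from Pex14 (39.7, 31.9) and from Pex11g (21.2, 24.9). Pex7 (81.4, 81.3) still overlapped Pex19, Pex6 (42.6, 35.4) overlapped Pex14, and Pex5 (81.3, 65.9) came up to Pex7. From the highest to the lowest peroxin of the 9, levels spanned 5.71 times in replicate 2 and 6.59 times in replicate 1. Pex11a and Pex11g lay in both libraries under the median of protein-coding genes at 1 TPM or more, which was 4.43 TPM in replicate 2 and 3.11 TPM in replicate 1.

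Between the libraries none of the 10 genes was over 2-fold apart, where 182 of the 7702 genes with a mean of 1 TPM and 10 counts or more, 2.36%, were. Of all genes 0.792% were over 2-fold higher in replicate 2 and 1.57% over 2-fold higher in replicate 1. Their log2 ratios ran from -0.40 for Pex11g to 0.19 for Pex14, with a median of -0.09, beside a median of -0.04 over all genes tested. Under TMM 4 of the 10 had ratios above 0, where 44.5% of all genes did, but this count depends on the scaling: it was 8 when scaled by total counts, 9 by spike-ins and 10 by deposited TPM. These scalings moved the median of all genes to 0.11, 0.27 and 0.49. None of these 4 scalings put any of the 10 over 2-fold apart. Among all genes tested, 61 were over 2-fold higher in replicate 2 and 121 in replicate 1 under TMM, against 98 and 99 by total counts, 172 and 82 by spike-ins and 531 and 87 by deposited TPM. With 1 library on each side there is no replicate check on these ratios and no test.

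**Figure D3:**
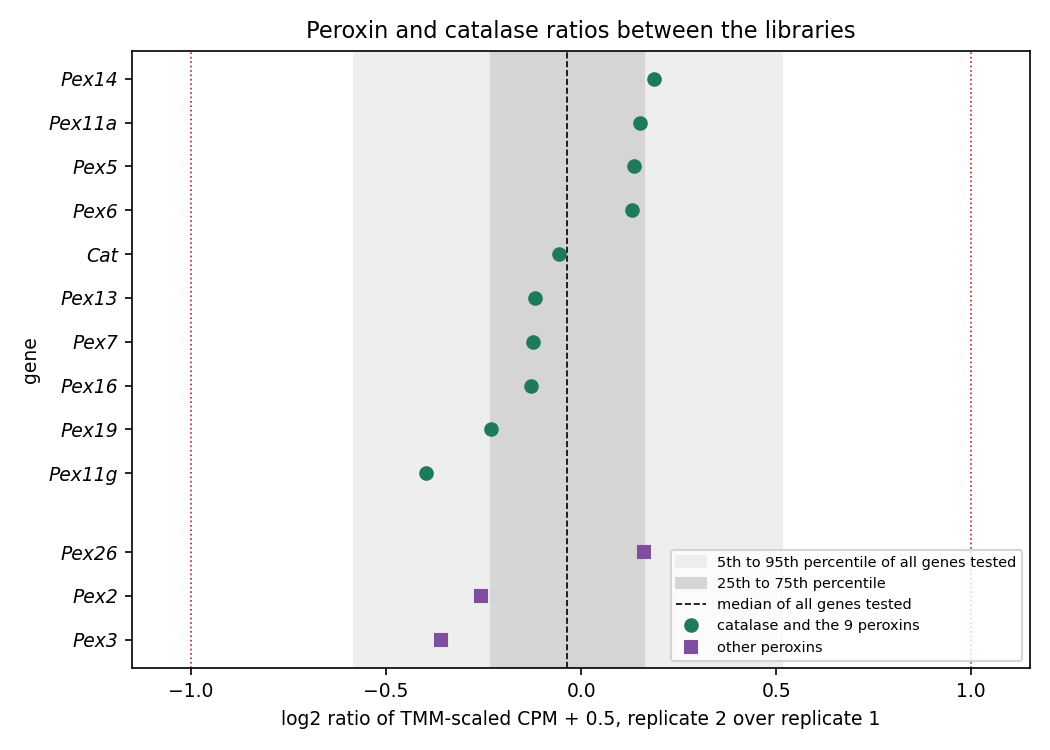
Log2 ratio of TMM-scaled CPM plus 0.5, replicate 2 over replicate 1, for the 10 genes (circles) and the 3 other peroxins past the filter (squares); bands give the percentiles of all 7702 genes tested and dotted lines mark 2-fold. All 13 genes lie inside the band from the 5th to the 95th percentile, which runs from -0.58 to 0.51.

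The ratios of all genes varied with the GC content of the coding sequence, with medians, over 10 bins of equal gene number, from -0.26 in the bin of lowest GC content to 0.15 in the bin of highest. Across 7377 protein-coding genes, which are not independent replicates and share both libraries, Pearson's r between GC content and ratio was 0.34 and Spearman's rho 0.44. Over the 10 genes r was 0.23 and rho 0.14. The 10 genes ran from 45.5% GC in Pex13 to 63.4% in Pex6. With the median of its GC bin taken off, a step added after seeing the data, the ratio was 0.05 for Pex13, -0.02 for Pex6, 0.04 for Pex5, 0.07 for Pex14 and -0.01 for Cat. Pex11g, Pex19 and Pex16 were at -0.52, -0.26 and -0.25, so these 3 lay farther from genes of like GC content than from all genes. The part of GC content in the ratios was not tested.

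**Figure D4:**
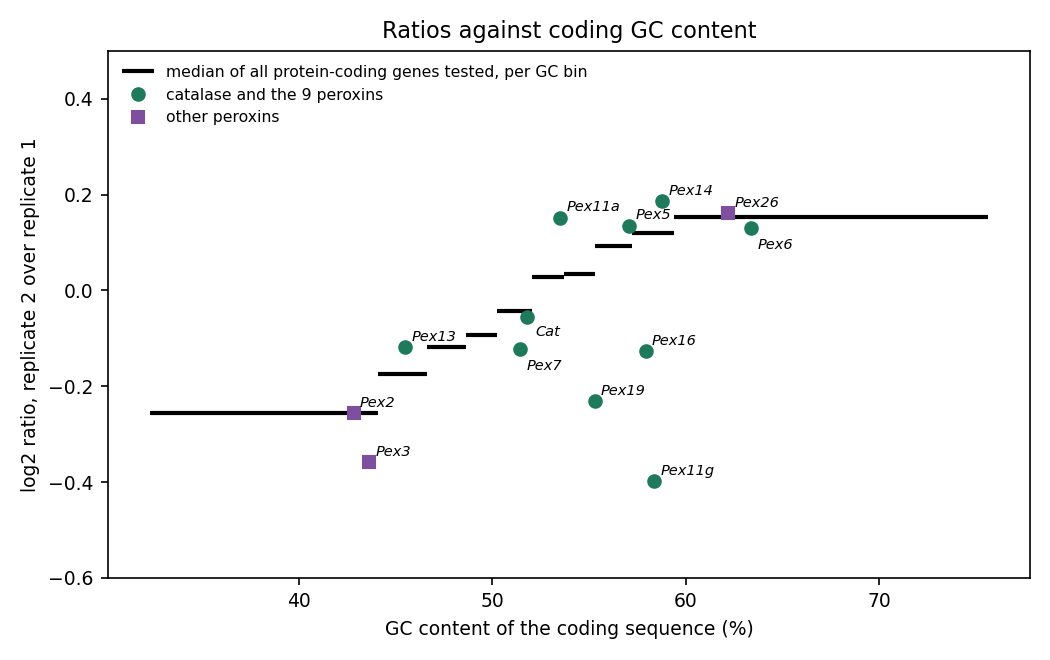
Log2 ratio of replicate 2 over replicate 1 under TMM against the GC content of the coding sequence (%), for the 10 genes (circles) and the other peroxins (squares); each bar is the median ratio of 1 of 10 GC bins of the protein-coding genes tested. Pex13, Cat, Pex6, Pex5 and Pex14 lie near the bars, and Pex11g lies below them at -0.40.

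Each of the 10 genes had the same most abundant transcript in both, where 91.4% of 5040 protein-coding genes with 2 or more transcripts did and in 8.61% it differed. The share of that transcript moved by more than 5 percentage points between the libraries in none of the 10, where it did in 41.1% of the 5040 genes; the largest move of a most abundant transcript among the 10 was that of Pex16-201, at -4.37 points. A minor transcript, Pex16-202, moved by more, with 10.12% in replicate 2 and 4.54% in replicate 1. The median share of the most abundant transcript was 90.7% in replicate 2 and 90.0% in replicate 1 for the 10 genes, beside 70.5% and 71.4% for all. Protein-coding transcripts held a median of 92.3% of IsoPct in replicate 2 and 92.6% in replicate 1 of the 10 genes, close to the 91.5% and 91.7% of all 5040.

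**Figure D5:**
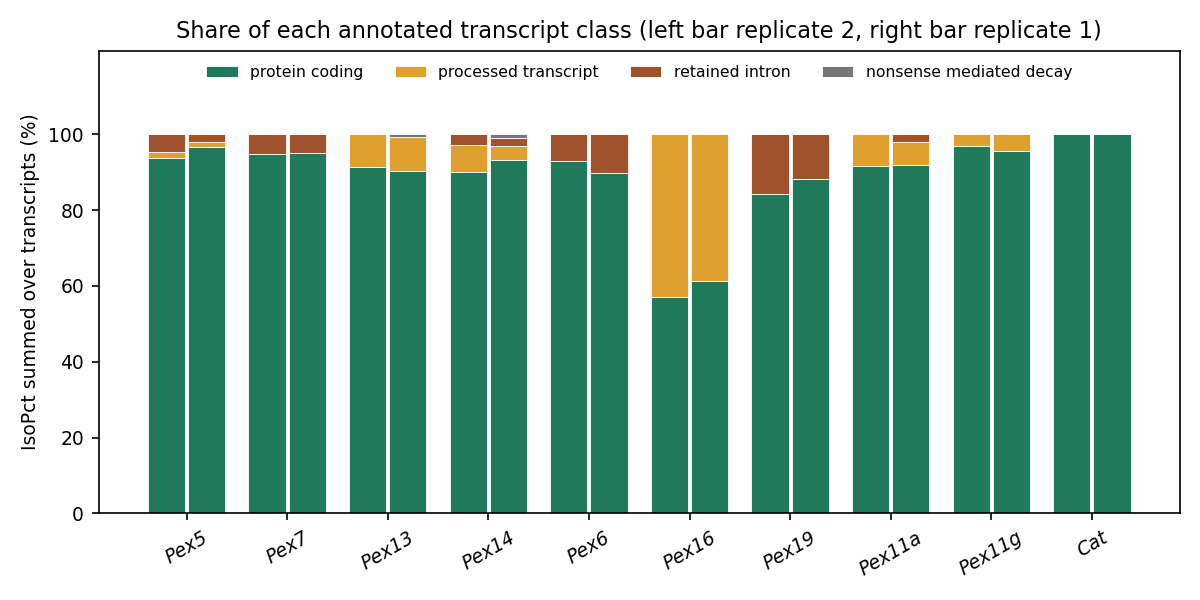
IsoPct (%) summed over the transcripts of each annotated class, for each gene, with replicate 2 as the left bar and replicate 1 as the right bar. Pex16 stands apart, with processed transcripts at 43.0% and 38.6%, and Cat is entirely in protein-coding transcripts.

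The 5 other peroxins listed stood below the 4 highest of the 9 in both libraries, and 3 of the 5 reached 1 TPM in both. Pex2, a subunit of the ubiquitin ligase that marks PEX5 for export, stood at 7.40 TPM in replicate 2 and 6.08 TPM in replicate 1. Pex10, also a subunit of that ligase, stood at 0.67 TPM in replicate 2 and 0.40 TPM in replicate 1. Pex5l, a relative of Pex5 known from brain, had 10 counts in replicate 2 and 3 in replicate 1. None of the 3 past the filter was over 2-fold apart, where 2.36% of all genes tested were. The median log2 ratio of the 3 was -0.26, with 2 below 0 under TMM. Each had a higher deposited TPM in replicate 2, a scale on which the median log2 ratio of all genes was 0.49.

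The enzymes that the peroxins serve included some far above the peroxins. On the list of peroxisomal fatty acid oxidation, 22 of 24 genes reached 1 TPM in both libraries. They were led by Scp2, a lipid carrier with a thiolase form, at 406 TPM in replicate 2 and 341 TPM in replicate 1, Slc27a2, a very long chain acyl-CoA synthetase, at 178 and 152 TPM, and Acaa1b, a thiolase, at 113 and 84.9 TPM. Acaa1b has a near-identical copy, Acaa1a, and the posterior SD of its count was 18.0 fragments in replicate 2 and 18.5 in replicate 1. Of the 6 genes of alpha oxidation and ether lipid synthesis, 4 reached 1 TPM in both, led by Phyh, which starts the breakdown of phytanic acid, at 192 TPM in replicate 2 and 134 TPM in replicate 1 and Hacl1, a lyase of the same route, at 84.1 and 69.2 TPM. Gnpat, the first enzyme of ether lipid synthesis, stood at 4.52 TPM in replicate 2 and 2.73 TPM in replicate 1.

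Of the 8 genes of peroxide-forming oxidases and glyoxylate handling, 7 reached 1 TPM in both libraries. After Uox came Agxt, which turns glyoxylate into glycine, at 87.9 TPM in replicate 2 and 42.9 TPM in replicate 1, and Pipox, an oxidase of sarcosine and pipecolic acid, at 35.6 and 27.3 TPM. Dao, which encodes D-amino acid oxidase, had 1 count in replicate 2 and 0 in replicate 1. Among 10 antioxidant enzymes, all at 1 TPM or more, Cat was exceeded by Gpx1, a glutathione peroxidase of the cytosol and mitochondria, at 766 TPM in replicate 2 and 580 TPM in replicate 1. Sod1 stood at 176 TPM in replicate 2 and 143 TPM in replicate 1, and Prdx1 at 131 and 100.9 TPM, both below Cat in each library.

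The other lists hold further peroxisomal proteins, fission factors and regulators. Of 10 other membrane and matrix proteins found in the tables, 9 reached 1 TPM in both libraries, led by Idh1, an NADPH-forming dehydrogenase, at 76.3 TPM in replicate 2 and 67.9 TPM in replicate 1, Baat, which conjugates bile acids, at 36.7 and 33.2 TPM, and the protease Lonp2 at 36.5 and 33.4 TPM. The fission factors shared with mitochondria stood at 15.8 TPM in replicate 2 and 12.5 TPM in replicate 1 for Fis1, 8.26 and 6.34 TPM for Mff and 3.84 and 2.81 TPM for Dnm1l, while Gdap1 had 3 counts in replicate 2 and 0 in replicate 1. Of 5 regulators 2 reached 1 TPM in both libraries. Ppara, the receptor for fatty acids and fibrates, stood at 30.9 TPM in replicate 2 and 20 TPM in replicate 1, Rxra, its partner, at 18.5 and 11.8 TPM and Pparg at 1.22 and 0.93 TPM.

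No gene of these lists past the filter was over 2-fold apart between the libraries under TMM, where 2.36% of all genes tested were. By deposited TPM Agxt and Crat had more than 2 times as much in replicate 2. The median log2 ratio was -0.28 for the 23 fatty acid oxidation genes, -0.30 for the 9 other membrane and matrix proteins, -0.16 for the 10 antioxidant enzymes, -0.10 for the 3 fission factors, -0.09 for the 4 genes of alpha oxidation and ether lipids, -0.03 for the 7 oxidases and 0.00 for the 3 regulators. Set beside the median of -0.09 of the catalase and peroxin genes and -0.04 of all genes, the fatty acid oxidation list had 5 of 23 ratios above 0 under TMM, where 44.5% of all genes did. This count depends on the scaling too. By deposited TPM, where the median of all genes moved to 0.49, 20 of the 23 were higher in replicate 2 and 3 were lower. The share of all genes higher in replicate 2 on that scale is not given here, so this count is not read as a trait of the list. Within that list the values ran from -0.98 for Nudt7, a coenzyme A diphosphatase, with 8488 counts in replicate 2 and 17841 in replicate 1, to 0.87 for Crat, carnitine acetyltransferase, with 1482 counts in replicate 2 and 847 in replicate 1. This pair was chosen after their values were seen.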

How the data were processed

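Total RNA-seq of 2 liver libraries was deposited as gene and transcript tables, quantified by the authors per library on mm10 with GENCODE M4, per the notes deposited with each library; which aligner and quantifier were used is not given. Expected counts are estimated and unnormalised per the file headers. Deposited TPM and FPKM values are scaled to length and depth. IsoPct is the deposited percent of a transcript in its gene by TPM. The interval bounds of TPM and the posterior SD of counts are deposited signal columns, with no interval level stated. The posterior SD covers the assignment of reads between features and no counting error.

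Symbols, classes and coordinates came from GENCODE M21, also mm10, matched for 42462 of 43346 mouse identifiers with the version removed; Mpv17, on a list, had no match. Counts were rounded for edgeR 4.0.16, which gave TMM factors of 1.05 for replicate 2 and 0.950 for replicate 1, and for DESeq2 1.42.0, which gave size factors as an alternative (R 4.3.3). Ratios are log2 of TMM-scaled CPM plus 0.5, which equals 37.4 counts in replicate 2 and 39.8 in replicate 1, so they understate the change of low genes. The filter was a mean of 1 TPM and 10 counts. GC content was that of the longest coding sequence in GENCODE M21, in 10 bins. The ratio step was run on simulated counts with counting noise only and set changes well past the fold used. That run checks the calculation and says nothing about the spread between these libraries. Other values used Python 3.11.15 with pandas 2.3.3. With 1 group no test was made. The genes, lists and naming rule (all 10 genes and all other peroxins, and of each other list the 3 highest by mean TPM and any over 2-fold apart) were chosen with earlier results of these data known. Dao, Gdap1, Nudt7 and Crat fall outside that rule and were named after their values were seen. Genes of most similar pattern were not sought, since 2 libraries allow no correlation. Residues at protein ends were not analysed here. Sequences are from GENCODE M21 transcripts and RefSeq promoters, where 9 of the 10 genes matched. Some listed genes are not reported here and are left out of the list counts.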

Additional observations from a re-analysis of the deposited data

How the results depend on the processing

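No paired analysis was possible because both libraries belong to 1 group. The median log2 ratio of the 10 genes was -0.09, and became 0.23 with spike-in scaling and 0.49 by deposited TPM, shifts that all genes shared (medians of 0.27 and 0.49). The 182 genes over 2-fold apart became 618 by deposited TPM, 427 with no filter on TPM (2.76% of 15492) and 85 at a mean of 5 TPM (2.99% of 2844). Of the 10 genes, 5 reached 5 TPM in both libraries. Their summed mean was 2123 with TPM taken over protein-coding genes and 968 in FPKM, which are other scales. The Pex5 share with the long-form exon, whole or in part, was 22.3% by expected counts and 20.9% of all transcripts. Leaving out 1 of 2 libraries only returns the value of the other, so it is no check on these results. Those values were 355 TPM in replicate 2 and 251 TPM in replicate 1 for the summed level, and 21.9% and 22% for the Pex5 share. Among coding transcripts, the count of Pex5-205 in both libraries and that of Pex5-203 in replicate 1 were under their posterior SD. The correction for GC content was chosen after seeing the data.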
